A study of Rattus norvegicus with 15 samples.

Results

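The genes of the circadian clock were followed in the fat pad of the epididymis, a visceral depot, of 15 male Long-Evans rats. The set held 10 genes: the activators Bmal1 (also called Arntl), Clock and Npas2, the repressors Per1, Per2 and Per3, the nuclear receptors Nr1d1 and Nr1d2, and the transcription factors Dbp and Tef. They were chosen by name, through the probe sets whose annotation gives exactly 1 gene, and made up 10 of the 14217 genes so named on the array and 19 of its 31099 probe sets. A probe set is a group of probes against 1 transcript. A mean signal above a filter on low values was found for 9 of the 10 genes and 12 of the 19 probe sets; the single Npas2 probe set lay below it.

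The obese group held 7 rats that had eaten a diet high in fat and sucrose from weaning on (C1 to C8, with no rat C4 analysed here). The lean group held 8 rats on regular chow (A1 to A8). Diet and obesity went together, so their parts cannot be told apart. All rats were killed in the fed state at 26 weeks of age, at 9 AM. Light came on at 10 PM in a cycle with 12 hours of light, so tissue was taken 11 hours into the light phase and 1 hour before its end, and the order in which rats were killed is not given in the sources used here. Each rat was sampled once, at 1 time of day, so neither the amplitude nor the phase of a rhythm was measured. In whole tissue, fewer cells of a type and less RNA per cell cannot be told apart.

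Total RNA of each rat was hybridised to 1 Affymetrix RAE230_2 array, and the values are MAS5 signals, the linear brightness given to each probe set. The 2% trimmed mean of the signals was between 1500.34 and 1500.42 on every array. All 9 adipocyte markers examined were above the filter, and of 4 markers of the epididymal epithelium 1 was on the array and it lay below the filter. The arrays of obese rat C1 and lean rat A7 stood apart from the rest in their likeness to each other: the SD of their log2 difference over probe sets was 0.221, against 0.369 to 0.609 for the other 104 pairs of rats. Their labels give them to different groups, and the labels do not show whether either is wrong. The tests between groups and the correlations are therefore given for all 15 arrays and for the 13 without this pair (6 obese and 7 lean rats), while spreads within groups and likeness to other genes are given for the 13 alone. The labels name separate rats, so p-values refer to the spread between these animals. Those with 15 arrays also count C1 and A7 as separate rats, which their likeness puts in doubt.

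The clock of mammalian cells is a loop of transcription factors. Bmal1 protein pairs with Clock or Npas2, binds E-box sequences and switches on the Per and Cry genes, whose proteins then block that pair. The same pair switches on Nr1d1 and Nr1d2, also called REV-ERB alpha and beta, which bind ROR elements and repress Bmal1. Dbp and Tef, 2 relatives of the PAR bZIP family, are driven through E-boxes and act on D-boxes, which occur in Per genes. In rodent white fat many of these transcripts rise and fall over the day.

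Promoters of all 10 genes were found in RefSeq (build GRCr8), 12 in all, each 300 bases long with 250 before the start site. They are shown for 4 genes because these hold the letters of a clock element. Capitals mark the ROR and REV-ERB element core in Bmal1 (chr1:176766078-176766377, plus strand), which begins 16 bases before the start site, and the D-box in Per2 (chr9:99496944-99497243, minus strand), 192 bases before it. Capitals also mark the E-box in the second promoter of Nr1d1 (chr10:84229405-84229704, minus strand), 191 bases before its start site, and in Tef (chr7:115206577-115206876, plus strand), 198 bases before it.
Bmal1: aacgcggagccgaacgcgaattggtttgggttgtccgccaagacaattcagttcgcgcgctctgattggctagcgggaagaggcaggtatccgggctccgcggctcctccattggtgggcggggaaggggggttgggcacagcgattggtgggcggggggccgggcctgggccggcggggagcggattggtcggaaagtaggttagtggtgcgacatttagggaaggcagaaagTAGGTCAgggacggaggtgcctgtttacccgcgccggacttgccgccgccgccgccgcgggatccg
Per2: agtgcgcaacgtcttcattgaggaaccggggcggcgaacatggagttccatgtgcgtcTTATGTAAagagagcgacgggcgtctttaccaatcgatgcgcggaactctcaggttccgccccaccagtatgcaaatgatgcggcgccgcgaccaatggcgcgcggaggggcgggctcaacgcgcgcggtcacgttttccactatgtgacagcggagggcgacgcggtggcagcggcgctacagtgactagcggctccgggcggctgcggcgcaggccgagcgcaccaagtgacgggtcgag
Nr1d1: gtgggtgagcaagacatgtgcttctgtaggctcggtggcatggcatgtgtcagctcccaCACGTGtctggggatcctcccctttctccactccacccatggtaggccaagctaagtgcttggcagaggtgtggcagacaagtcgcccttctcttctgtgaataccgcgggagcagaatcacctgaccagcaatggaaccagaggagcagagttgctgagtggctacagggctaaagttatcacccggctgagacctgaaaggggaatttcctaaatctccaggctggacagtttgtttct
Tef: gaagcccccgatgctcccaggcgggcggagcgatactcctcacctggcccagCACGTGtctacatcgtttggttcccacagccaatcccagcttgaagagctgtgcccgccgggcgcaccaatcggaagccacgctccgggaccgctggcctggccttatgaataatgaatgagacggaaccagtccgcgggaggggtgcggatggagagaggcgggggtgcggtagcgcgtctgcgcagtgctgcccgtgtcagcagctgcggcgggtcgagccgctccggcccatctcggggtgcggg

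The letters searched on both strands were CACGTG for the E-box, TTATGTAA or TTACGTAA for the D-box and TAGGTCA for the ROR and REV-ERB core. None of the 12 promoters held more than 1 of these motifs, so no matches overlapped. An E-box was in 2 of the 12 promoters, a D-box in 1 and the ROR and REV-ERB core in 1. Over all 33469 promoters of the same length the shares were 6.42% for the E-box, 1.01% for the D-box and 2.63% for the core. A match describes the letters in this window and is not a shown binding site.

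No clock gene passed the test between obese and lean rats, and by each gene's brightest probe set the smallest p-values went with higher signals of the repressors Per1 and Per2 and lower signals of Nr1d1 in obese fat. Without the near-identical pair, Per1 had a log2 fold change (obese minus lean) of 1.04 ± 0.37, Per2 of 0.38 ± 0.14 and Nr1d1 of -0.45 ± 0.14 (SE; limma adjusted p = 0.161, 0.187 and 0.116). The activators Bmal1 and Clock had -0.30 ± 0.13 and -0.25 ± 0.11 (SE; limma adjusted p = 0.238 and 0.225). Among the 12 clock probe sets above the filter, the smallest p was that of a second, dimmer one of Tef. It had a log2 fold change of -0.37 ± 0.11 without the pair (SE, limma unadjusted p = 0.00284, adjusted p = 0.0951). Fold changes here are on the scale log2(signal + 79.9), which understates differences of dim genes.

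Of the 9 genes above the filter, limma called 0 at an adjusted p of 0.05 with all 15 arrays, where it called 0% of 18625 probe sets. Without the pair it again called 0 of the 9, where it called 1.01% of the probe sets. That share, 189 probe sets, moved with single rats. The count became 163, 262, 111, 61, 54 and 52 when obese C2, C3, C5, C6, C7 or C8 was also left out. It became 151, 94, 99, 74, 51, 54 and 134 when lean A1, A2, A3, A4, A5, A6 or A8 was. From all 15 arrays, leaving out obese C1 alone gave 245 and leaving out lean A7 alone gave 1. An unadjusted p under 0.05 was found for 5 of the 9 with all 15 arrays, against 15.6% of all probe sets, and for 6 of the 9 without the pair, against 17.8%. The median log2 fold change of the 9 genes was -0.09 with 15 arrays and -0.10 without the pair, against -0.04 for all probe sets in both. The signals of obese and lean rats overlapped for every one of the 9 genes, and how often they overlap over all probe sets was not counted.

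**Figure D1:**
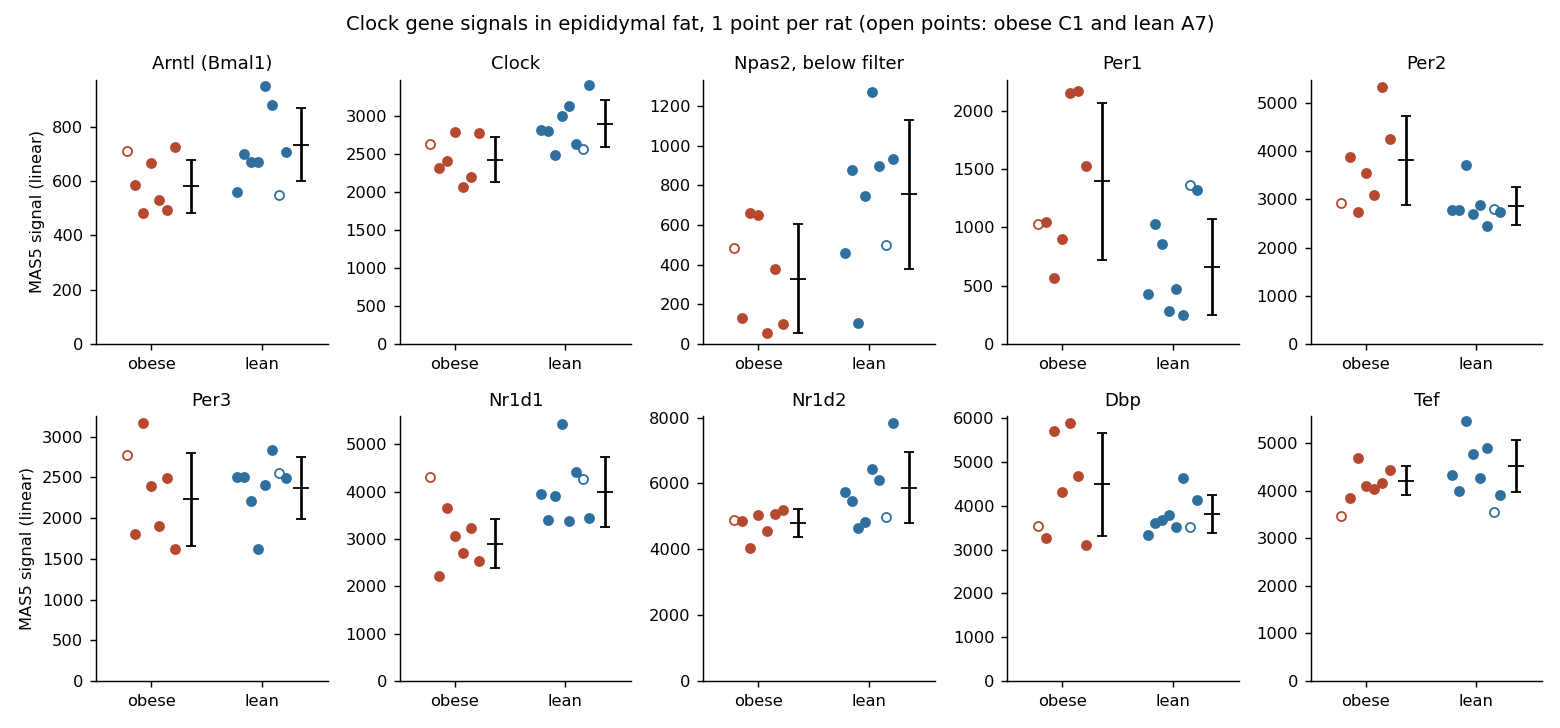
MAS5 signal (linear) of each clock gene's brightest probe set in obese (left, red) and lean rats (right, blue), 1 point per rat. Bars show mean ± SD without obese C1 and lean A7, which are drawn open. Per1 and Per2 sit higher and Nr1d1 lower in most obese rats, and the groups overlap in every panel.

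Bmal1 (Entrez gene 29657), the partner that both activator pairs share, had signals with a lowest, median and highest value of 483.9, 585.8 and 725.4 in the 7 obese rats and 548.3, 685.1 and 949.5 in the 8 lean rats. Obese C3, C6 and C7 lay below every lean rat, and lean A5 and A6 lay above every obese rat. Its log2 fold change was -0.21 with all 15 arrays (limma 95% interval -0.47 to 0.05) and -0.30 without the pair (-0.57 to -0.03).

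Clock (60447), the partner of Bmal1, had 2065.0, 2404.9 and 2781.8 in obese rats and 2487.9, 2809.1 and 3406.9 in lean rats, in the same order of lowest, median and highest signal. All 7 obese rats were below the lean median, 4 of them below every lean rat, and 5 lean rats were above every obese one. The log2 fold change was -0.21 with 15 arrays (limma unadjusted p = 0.0367, adjusted p = 0.29) and -0.25 without the pair (unadjusted p = 0.0295, adjusted p = 0.225). A second Clock probe set above the filter averaged 1252.8 ± 146.9 in obese and 1277.3 ± 140.2 in lean rats without the pair (SD, n = 6 and 7), a log2 fold change of -0.03 with a limma 95% interval of -0.25 to 0.20, and 0.00 with 15 arrays (-0.20 to 0.20).

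Npas2 (316351), which can stand in for Clock, was dim and scattered, from 55.6 to 661.1 in obese rats (median 376.5) and from 104.8 to 1271.1 in lean rats (median 812.6). Obese signals all lay under the lean median, and 5 lean rats exceeded every obese rat, while lean A3 was lower than 5 of the 7 obese rats. Fitted with no filter, its log2 fold change was -0.98 ± 0.45 with 15 arrays and -1.13 ± 0.50 without the pair (SE; limma adjusted p = 0.409 and 0.345).

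Per1 (287422), the repressor gene that also responds quickly to glucocorticoid and to cAMP, varied most among the 9 genes above the filter. Its signals were 1027.4, 1051.0, 566.6, 897.5, 2151.9, 2169.6 and 1528.9 in obese C1, C2, C3, C5, C6, C7 and C8. Lean A1 to A8 had 429.0, 1033.8, 857.3, 280.6, 476.8, 252.2, 1364.9 and 1320.2 in that order. Obese C6, C7 and C8 were above every lean rat, and lean A1, A4, A5 and A6 were below every obese rat. Without the pair the means were 1394.2 ± 669.8 in obese and 664.3 ± 410.6 in lean rats (SD, n = 6 and 7), a difference of 2.06-fold on the fitted scale with a limma 95% interval of 0.26 to 1.83 in log2. With all 15 arrays the log2 fold change was 0.86 ± 0.35 (SE; limma unadjusted p = 0.0253, adjusted p = 0.254).

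Per2 (63840), its close relative, had a lowest, median and highest signal of 2733.1, 3548.7 and 5331.0 in obese rats and of 2443.7, 2776.5 and 3703.8 in lean rats. Obese C2, C7 and C8 exceeded every lean rat, and lean A3, at 3703.8, stood above the other 7 lean rats, whose highest was 2874.1. The log2 fold change was 0.34 ± 0.13 with 15 arrays (SE; limma unadjusted p = 0.0201, adjusted p = 0.238) and 0.38 ± 0.14 without the pair (unadjusted p = 0.0179).

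Per3 (78962), the remaining Per gene, ran from 1624.0 to 3172.6 in obese rats (median 2392.3) and from 1618.8 to 2833.9 in lean rats (median 2500.7). The groups covered nearly the same range. Its log2 fold change without the pair was -0.10, and the limma 95% interval of -0.44 to 0.23 leaves room for a difference in either direction. With 15 arrays it was -0.07 (limma 95% interval -0.37 to 0.24).

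Nr1d1 (252917), the nuclear receptor that represses Bmal1, had the smallest p of the genes' brightest probe sets. Obese C1, C2, C3, C5, C6, C7 and C8 had signals of 4300.8, 2223.6, 3647.5, 3060.1, 2711.7, 3232.3 and 2531.6. In lean A1 to A8 they were 3957.3, 3405.0, 3904.6, 5426.1, 3373.0, 4421.7, 4266.8 and 3443.8. All obese rats but C1 and C3 lay below every lean rat. The means without the pair were 2901.1 ± 514.5 in obese and 3990.2 ± 739.2 in lean rats (SD, n = 6 and 7), 1.36-fold lower in obese rats on the fitted scale (limma unadjusted p = 0.0052, rank 838 of 18625, adjusted p = 0.116). With all 15 arrays the log2 fold change was -0.38 ± 0.14 (SE; limma unadjusted p = 0.013, adjusted p = 0.206).

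Nr1d2 (259241), which shares the DNA site of Nr1d1, had 4036.1, 4898.0 and 5196.8 in obese rats and 4642.7, 5595.8 and 7844.8 in lean rats as lowest, median and highest. All obese rats lay below the lean median, and the lean rats were the more scattered. The log2 fold change was -0.24 ± 0.11 with 15 arrays and -0.27 ± 0.12 without the pair (SE; limma unadjusted p = 0.0426 and 0.0419, adjusted p = 0.306 and 0.26). A second Nr1d2 probe set had -0.18 in both sets of arrays (limma adjusted p = 0.429 with 15 arrays and 0.431 without the pair).

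Dbp (24309), a PAR bZIP output factor, ranged from 3109.7 to 5901.0 in obese rats (median 4304.0) and from 3322.0 to 4633.4 in lean rats (median 3638.0). Obese rats lay on both sides of the lean range, 3 above it and 2 below it. Its log2 fold change was 0.20 ± 0.15 without the pair (SE; limma adjusted p = 0.523), and 0.17 with 15 arrays.

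Tef (29362), the second PAR bZIP factor, differed between its probe sets. The brightest gave 3468.6, 4102.9 and 4675.7 in obese and 3555.5, 4296.3 and 5457.0 in lean rats as lowest, median and highest, a log2 fold change of -0.09 ± 0.10 both without the pair and with 15 arrays (SE; limma adjusted p = 0.66 and 0.696). The second gave 671.5, 712.4 and 894.3 in obese and 819.2, 995.8 and 1189.7 in lean rats. On it, 7 of 8 lean rats were above every obese rat, A8 being the exception. This second probe set had a log2 fold change of -0.37 ± 0.11 without the pair and -0.35 ± 0.09 with 15 arrays (SE). Its limma unadjusted p was 0.00284 and 0.00163, rank 556 and 256 of 18625. It too missed the threshold (limma adjusted p = 0.0951 and 0.116).

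**Figure D2:**
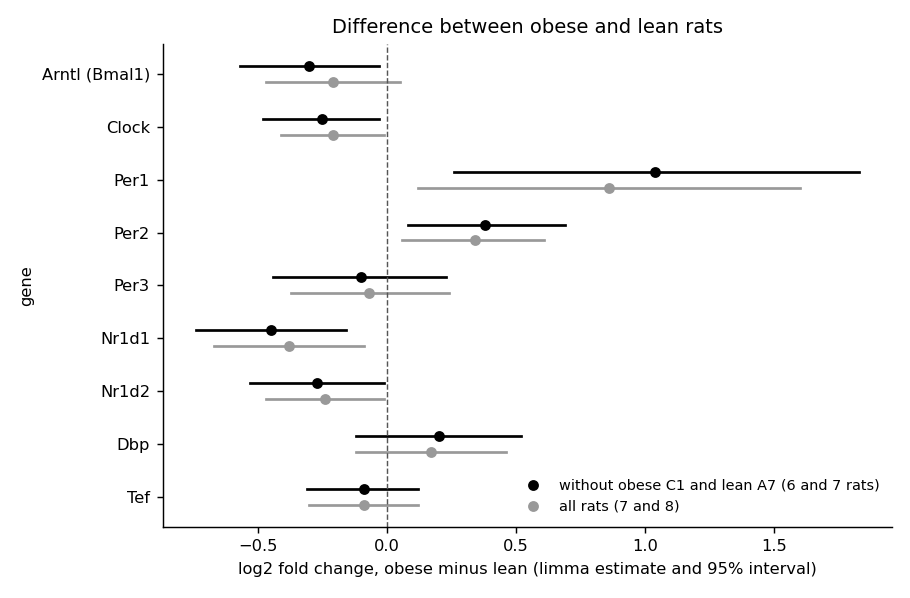
Log2 fold change, obese minus lean, of the 9 clock genes above the filter, with limma 95% intervals (unadjusted), without obese C1 and lean A7 (black) and with all rats (grey). Per1 has the widest interval, 0.26 to 1.83 without the pair, and the intervals of Per3, Dbp and Tef cross 0 in both sets.

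Clock, Nr1d2 and Tef each had a second probe set above the filter, which allowed a check of 1 measurement of the gene against another. With each group's mean taken out, the correlation of the 2 over the 13 rats was -0.22 for Tef and -0.01 for Clock (exact two-sided permutation p = 0.491 and 0.964), and 0.53 for Nr1d2 (exact permutation p = 0.0624). Over all 15 rats these were -0.20, 0.05 and 0.55. The reason was not tested, and values read from 1 probe set of Clock or Tef hold for that probe set.

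**Figure D3:**
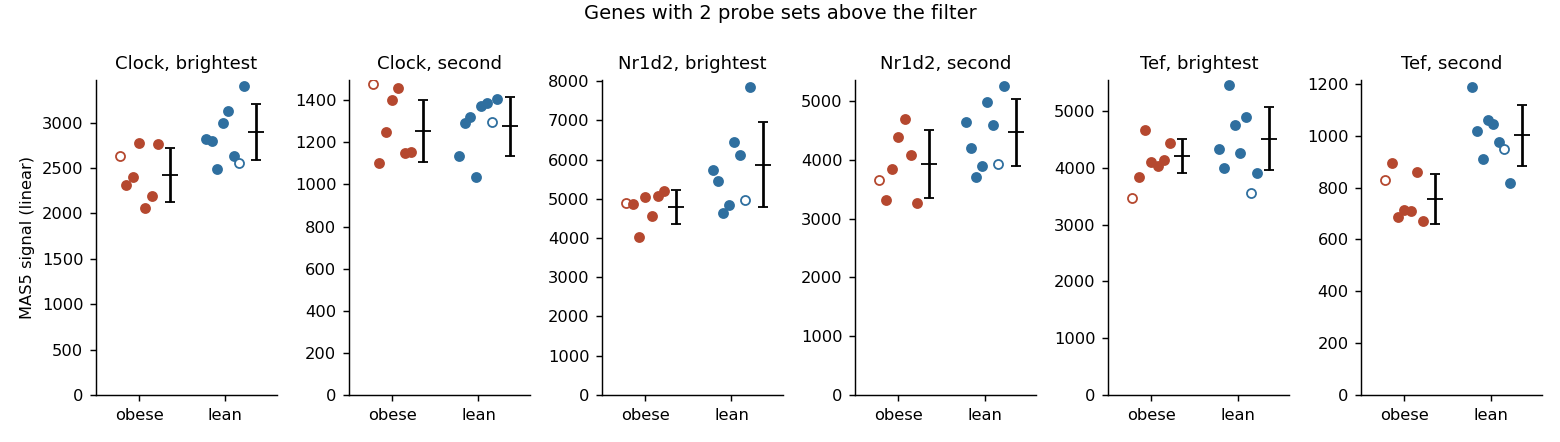
MAS5 signals (linear) of both probe sets above the filter for Clock, Nr1d2 and Tef, in obese (left) and lean rats (right), 1 point per rat, with mean ± SD without the open points C1 and A7. On the second Tef probe set 7 of 8 lean rats lie above every obese rat. On the second Clock probe set the means are 1252.8 in obese and 1277.3 in lean rats.

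The 9 genes differed in how much they varied between rats of 1 group. Per1 had a within-group SD of 0.77 on the log2 scale over the 13 rats, and 98.7% of the 10514 genes above the filter had a smaller one (median 0.25). Tef and Clock were among the steadier genes, with 0.14 and 0.16, and 8.24% and 13.9% of genes were steadier still. Dbp had an SD of 0.38 in obese and 0.16 in lean rats, while Nr1d2 had 0.13 in obese and 0.25 in lean rats. Whether these spreads differ between groups was not tested.

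Correlations among clock genes across rats were of about the size found among genes in general. With each group's mean taken out, 0 of the 36 pairs among the 9 genes passed an adjusted p of 0.05 by exact permutation within groups, either without the pair (lowest adjusted p = 0.5) or with 15 arrays (lowest adjusted p = 0.634). An unadjusted p under 0.05 was found for 3 pairs without the near-identical rats and for 1 pair with all. Over the 13 rats the median size of r was 0.255 for the 36 pairs, against 0.243 for the 55266841 pairs of all genes above the filter. An r of at least 0.55 in size was found for 4 of the 36 (11.1%), against 9.88% of all gene pairs. Positive values were found for 15 of the 36.

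Pairs of genes within the loop gave values in both directions over the 13 rats. Bmal1 had r = -0.13 with Per1, 0.00 with Per2, -0.18 with Per3, 0.43 with Nr1d2, -0.29 with Dbp and -0.03 with Tef. Bmal1 and Clock, the partners, had r = 0.43 and rho = 0.43 (exact permutation p = 0.155 and 0.179). Bmal1 and its repressor Nr1d1 had r = -0.35 and rho = -0.54 (exact permutation p = 0.264 and 0.0827), and r was -0.08 without C3 and A5, the rats farthest from the Bmal1 median. Per1 and Per2 had r = 0.50 and rho = 0.52 (exact permutation p = 0.0862 and 0.0979). Without the 2 rats farthest from the median of the first gene, r was 0.40 for Bmal1 and Clock and 0.43 for Per1 and Per2. With all 15 rats r was 0.52 for Bmal1 and Clock, -0.13 for Bmal1 and Nr1d1 and 0.45 for Per1 and Per2.

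Over the 13 rats the 2 nuclear receptors had a negative r, and r of opposite signs with the brightest Tef probe set. Each of these had an exact permutation adjusted p of 0.5. Nr1d1 and Nr1d2 had r = -0.50 (exact permutation p = 0.0973; rho = -0.36, p = 0.263). Tef had r = 0.57 with Nr1d1 (exact permutation p = 0.0483; rho = 0.63, p = 0.038) and r = -0.65 with Nr1d2 (p = 0.0403; rho = -0.36, p = 0.263). The value for Nr1d1 and Tef was 0.53 without obese C2 and lean A4, and that for Nr1d2 and Tef was -0.46 without lean A5 and A8. With all 15 rats r was -0.40 for Nr1d1 and Nr1d2, 0.09 for Nr1d1 and Tef and -0.35 for Nr1d2 and Tef. The relation of Nr1d1 and Tef therefore appears without the near-identical rats and not with them.

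Clock and Nr1d2 had r = 0.56 over the 13 rats (exact permutation p = 0.0455, adjusted p = 0.5; rho = 0.54, p = 0.0827) and 0.59 over all 15 (exact permutation p = 0.0193, adjusted p = 0.634). Over the 13 it was 0.69 without obese C6 and C7. Within the groups without the pair it was 0.36 in 6 obese rats and 0.72 in 7 lean rats (exact permutation p = 0.503 and 0.0649). By rank, Bmal1 with Nr1d2 had rho = 0.67 and Per2 with Dbp rho = -0.67 (exact permutation p = 0.0239 each, adjusted p = 0.43) over the 13 rats, against 0.64 and -0.56 over all 15.

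**Figure D4:**
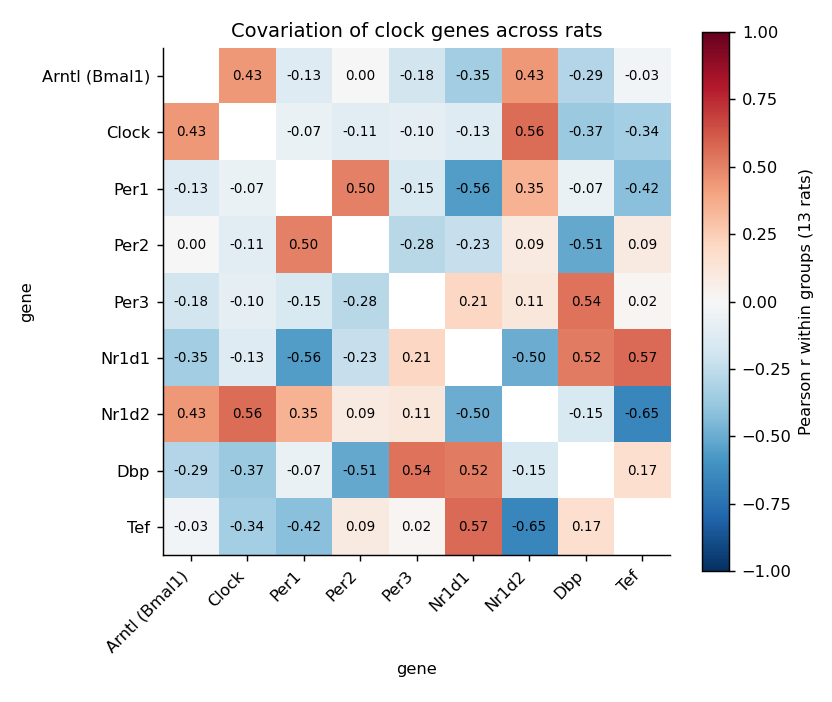
Pearson r between clock genes across the 13 rats without obese C1 and lean A7, with each group's mean taken out, from blue (-1) to red (1). The strongest value is -0.65 for Nr1d2 and Tef, and 15 of the 36 pairs are positive.

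For no clock gene was another clock gene among its 3 most alike genes, by within-group r over the 13 rats against 10513 other genes. The nearest was Nr1d2, 197th for Clock. The genes most like each were Clip2 for Bmal1 (r = 0.83), Jade1 for Clock (0.85), Tardbp for Per1 (0.92), Fbxw8 for Per2 (0.92) and Tmem218 for Per3 (0.89). They were Cxcr3 for Nr1d1 (0.86), Gbe1 for Nr1d2 (0.93), Mrpl35 for Dbp (0.91) and Pink1 for Tef (0.95). Next after these were Slc24a4 and Drosha for Bmal1, Fam76a and Pdhb for Clock, Cul3 and Cetn3 for Per1, Mxi1 and Sav1 for Per2, and Cfap36 and Trpv5 for Per3. For Nr1d1 they were Mfsd5 and Vcp, for Nr1d2 Tlk1 and Wdr44, for Dbp Ssb and Mrpl47, and for Tef Klhl31 and Rngtt. These are the highest of many values over few rats and are given as a description.

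A measure of RNA quality is given beside Per1 and Nr1d1. Its correlations with them had an unadjusted exact permutation p under 0.05, and none passed after adjustment. The log2 ratio of 3 prime to 5 prime Gapdh control signal, higher in more degraded RNA, ran from 0.353 to 1.072 in obese and from 0.559 to 1.381 in lean rats. Within groups, Per1 had r = -0.77 with it over 13 rats (exact permutation p = 0.00382, adjusted p = 0.241 over 63 relations; rho = -0.69, p = 0.0185) and -0.71 over 15 (exact permutation p = 0.0035, adjusted p = 0.17). The r over 13 was -0.78 without the 2 rats farthest from the median ratio. Nr1d1 had r = 0.59 and Nr1d2 r = -0.60 with the ratio (exact permutation p = 0.0472 and 0.0364, adjusted p = 0.337 and 0.328; rho = 0.43 and -0.52). Over 15 rats these r were 0.64 and -0.52.

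The spike-in level is the mean log2 signal of the control RNAs added to each sample. Some of its correlations with clock genes had an unadjusted exact permutation p under 0.05, and none passed after adjustment. The level ran from 13.184 to 16.195 in obese rats, the highest in C3, and from 13.212 to 14.906 in lean rats. Over the 13 rats its r was 0.60 with Nr1d1, -0.62 with Nr1d2 and 0.56 with Tef (exact permutation p = 0.0352, 0.0132 and 0.0281, adjusted p = 0.328, 0.272 and 0.328; rho = 0.38, -0.36 and 0.58). Without the 2 rats farthest from the median level these r were 0.42, -0.56 and 0.65, and over all 15 rats they were 0.58, -0.60 and 0.34. Its part in the clock gene values was not tested.

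When the Gapdh ratio was added to the fit, the log2 fold change of Per1 was 0.33 without the pair and 0.30 with 15 arrays (limma adjusted p = 0.647 and 0.733). That of Nr1d1 was -0.27 and -0.20 (limma adjusted p = 0.411 and 0.595), and that of Per2 0.24 and 0.20 (adjusted p = 0.526 and 0.611). The other genes moved in both directions. With 15 arrays and the ratio, Nr1d2 had -0.35, Clock -0.23 and Dbp 0.22, against -0.24, -0.21 and 0.17 without it. Bmal1 had -0.18, Tef -0.06 and Per3 0.01 with the ratio, against -0.21, -0.09 and -0.07. Without the pair Clock had -0.30 with the ratio and -0.25 without it. The part of RNA quality in these differences was not tested further.

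**Figure D5:**
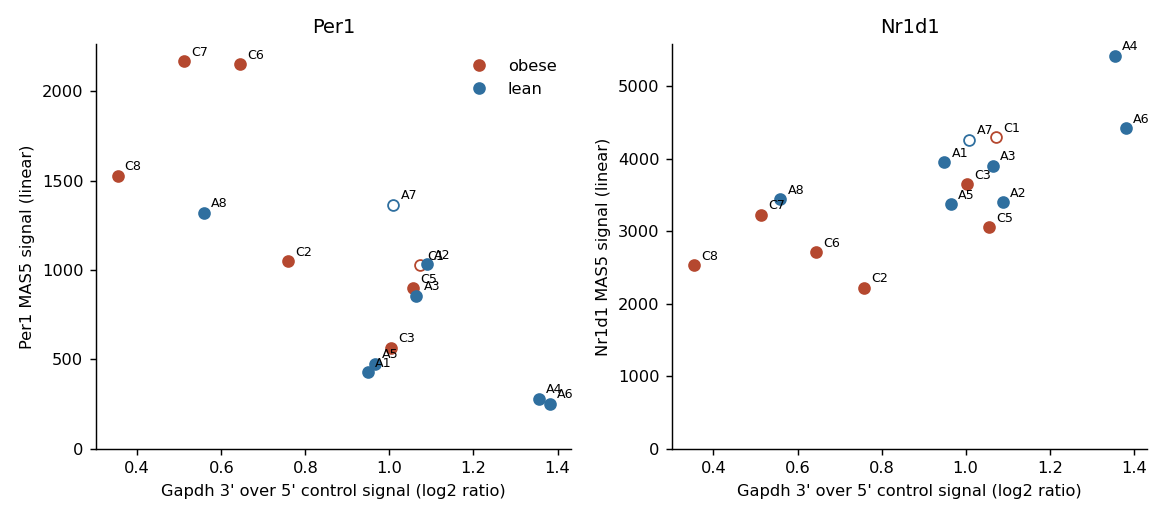
MAS5 signal (linear) of Per1 (left) and Nr1d1 (right) against the log2 ratio of 3 prime to 5 prime Gapdh signal, 1 labelled point per rat, obese red and lean blue, C1 and A7 open. Per1 is highest in obese C6 and C7, at ratios under those of most lean rats, and lowest in lean A4 and A6, which have the 2 highest ratios.

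Macrophage markers were also higher in obese fat: 11 of 11 had positive log2 fold changes without the pair, against 42.2% of all probe sets. Their median was 0.77. Limma called 5 of them higher without the pair, against 1.01% of all probe sets called in either direction. With all 15 arrays limma called 0, and 7 had an unadjusted p under 0.05, against 15.6% of all probe sets. The fold changes of 11 of 11 markers were positive there, against 42.5% of all probe sets, with a median of 0.65. Their summed signal was 114797.0 to 267055.7 in obese rats and 68106.8 to 110331.5 in lean rats, with 92856.6 in obese C1 and 93345.0 in lean A7, and no marker of the list had a signal of 0. Within groups their level had r = 0.43 with Per1 and -0.28 with Nr1d1 (exact permutation p = 0.157 and 0.39), and with all 15 rats 0.40 and -0.48. The value for Per1 was 0.05 over the 13 without the 2 rats farthest in marker level. Per3 had r = -0.51 over the 13 and -0.57 over all 15 (exact permutation p = 0.102 and 0.0474, adjusted p = 0.401 and 0.308). Bmal1 had -0.39 and -0.46 (exact permutation p = 0.201 and 0.0813). Adipocyte markers summed to between 343514.0 and 735018.3 in obese and between 373852.5 and 563901.6 in lean rats, and their level had r = 0.70 with Nr1d1 (exact permutation p = 0.00938, adjusted p = 0.272; rho = 0.36). This r was 0.48 without the 2 farthest rats and 0.69 with all 15. The part of the tissue's makeup in the clock gene values was not tested.

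Per1 responds to glucocorticoid, so genes known for that response were set beside it. Of 8 above the filter, limma called 0 without the pair, and 4 had an unadjusted p under 0.05, against 17.8% of all probe sets. Log2 fold changes were positive for 6 of these genes, against 42.2% of all probe sets, with a median of 0.26. The metallothionein Mt2A had 0.84, the kinase Sgk1 0.46, the receptor co-chaperone Fkbp5 0.44 and the leucine zipper protein Tsc22d3 0.37 (limma adjusted p = 0.0545, 0.117, 0.0985 and 0.237), while the phosphatase Dusp1 had -0.26. With 15 arrays 4 had an unadjusted p under 0.05, against 15.6% of all probe sets, limma called 0, and the median of these genes was 0.22. Their summed signal was 59167.5 to 79631.8 in obese and 53138.7 to 64521.6 in lean rats without the pair. Their level had r = 0.54 with Per1 and 0.64 with Per2 within groups (exact permutation p = 0.0618 and 0.0482, adjusted p = 0.353 and 0.337; rho = 0.30 each). Without the 2 rats farthest in this level r was 0.43 with Per1 and 0.29 with Per2, so the value for Per2 rests on those rats. With all 15 rats r was 0.62 with Per1 and 0.48 with Per2 (exact permutation p = 0.0167 and 0.0924, adjusted p = 0.176 and 0.394). The part of glucocorticoid in the clock gene values was not tested.

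Immediate early genes, switched on within minutes of a stimulus, had a median log2 fold change of 0.05 over 9 genes without the pair. Limma called 0, and 2 had an unadjusted p under 0.05, against 17.8% of all probe sets. With 15 arrays 1 had an unadjusted p under 0.05, against 15.6%, 0 were called, and the median of these genes was 0.03. Their summed signal ran from 16015.8 to 32858.9 in obese and from 16867.5 to 23246.2 in lean rats. Among them Atf3 had a log2 fold change of 1.43 without the pair and 1.28 with 15 arrays (limma adjusted p = 0.106 and 0.164) and was named for its size after its value was seen. Their level had r = 0.55 and rho = 0.71 with Per1 (exact permutation p = 0.0614 and 0.014, adjusted p = 0.353 and 0.584) and r = -0.67 with Nr1d1 (p = 0.0173, adjusted p = 0.272; rho = -0.47). These r were 0.79 and -0.49 without the 2 farthest rats, and 0.47 and -0.69 with all 15. Over 7 measures (the macrophage, adipocyte, mesothelium, glucocorticoid and immediate early levels, the Gapdh ratio and the spike-in level) and the 9 clock genes, 9 of 63 relations without the pair had an unadjusted p under 0.05 and 0 passed after adjustment; with 15 arrays these counts were 10 and 0.

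Further parts of the clock's machinery were read from a list of other genes. Of 28 further genes, 23 were on the array and 20 above the filter, and limma called 0 of the 20 in either set of arrays. Without the pair 13 had positive log2 fold changes, the median was 0.04, and 1 had an unadjusted p under 0.05, against 17.8% of all probe sets. With 15 arrays these were 12, 0.03 and 0, against 15.6%. Smallest in p among positive ones were the cell cycle kinase Wee1 at 0.27 ± 0.13, the NAD-making enzyme Nampt at 0.23 ± 0.11 and the ubiquitin protease Usp2 at 0.56 ± 0.36 (SE; limma adjusted p = 0.286, 0.289 and 0.433). Among negative ones they were the kinases Gsk3b at -0.27 ± 0.12 and Csnk1e at -0.27 ± 0.18 and the PAR bZIP factor Hlf at -0.14 ± 0.10 (SE; limma adjusted p = 0.26, 0.46 and 0.503). With 15 arrays the log2 fold changes of these 6 were 0.18 for Wee1, 0.19 for Nampt, 0.50 for Usp2, -0.26 for Gsk3b, -0.23 for Csnk1e and -0.11 for Hlf. The repressors Cry1 and Cry2, partners of the Per proteins, had -0.04 and 0.01 and are named after their values were seen.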

How the data were processed

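One array per rat was analysed, 7 obese and 8 lean. The authors deposited linear intensity values; the submitters' processing notes name MAS5, and its version and settings are not given in the sources used here. Trimmed means were near equal, so each array was read as already scaled, with no further scaling here. Of 31099 probe sets 57 were controls; of the rest 20826 named 1 gene, 436 several and 9780 none. Signals were put on log2(signal + 79.9), the 10th percentile, and probe sets with a mean above the 40th percentile (9.25) were kept, which left 18625. The comparison of groups used limma 3.58.1 and R 4.3.3 (lmFit, eBayes, Benjamini-Hochberg over all 18625), and intervals are not adjusted. The step was tested on simulated data. A gene is its brightest probe set. Correlations used log2 values less group means (ranks within groups for rho) and exact two-sided permutation of rats within groups, adjusted over the 36 pairs, or over the 63 relations with measures. Python 3.11.15 and matplotlib 3.10.9 were used.

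All 10 members are named; of the wider clock list, the 3 of smallest p on either side; and for each member the 3 genes of highest r. The members, lists and tests, the pair left out included, were chosen with earlier results of these data known. Alternatives were pseudocounts of 1 and 291.2, quantile normalization, median centring, no filter or one at the 60th percentile, array weights, a replicate block by rat number, eBayes with a robust trend, the Gapdh ratio as a term, a gene's probe sets averaged, group means kept (a permutation test) and each rat left out. Labels and design text disagree on RNA input (6 and 5 micrograms) and extraction reagent.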

Additional observations from a re-analysis of the deposited data

Results flagged for a closer look

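Each clock gene's brightest probe set was tested in each group, with 15 arrays and without the pair, for a signal far from the others. Of these 40 tests 4 flagged a rat, and chance flags about 1 in 20. Both sets of arrays share most rats, so the tests are not independent, and Per2 of lean A3 counts in both. Lean A3 stood alone at both ends: its Per2 signal of 3703.8 was above the other lean rats with all 15 arrays and without the pair, and its Npas2 signal of 104.8 was below them with 15 arrays. Lean A4 had a Per3 signal of 1618.8, below the other lean rats, with 15 arrays.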

How the results depend on the processing

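The count of clock genes called stayed 0 in every alternative run, with 15 arrays and without the pair. Of 446 alternative log2 fold changes, 444 kept their direction and 0 passed the threshold; the exceptions are Per3 with 15 arrays, at 0.01 with the Gapdh ratio and also at 0.01 without obese rat 8 (range -0.15 to 0.01 over rats left out). Alternative correlations covered Nr1d2 and Tef, Clock and Nr1d2, Nr1d1 and Tef, Per1 and Nr1d1, and Per1 and the Gapdh ratio. The clock pairs among them are the 4 of the 36 with r of at least 0.55 in size without the near-identical rats. Of 206 alternative values for these relations, 202 kept their direction. The other clock pairs, some with r near 0, are not in this count. With 15 arrays and the Gapdh ratio, r was -0.03 for Nr1d1 and Tef (-0.02 to 0.40 over rats left out) and 0.04 for Per1 and Nr1d1. With the mean over probe sets, 1 pair passed without the near-identical rats, Clock and Tef (r = -0.81, exact permutation adjusted p = 0.0354, against r = -0.34 by the brightest), the alternative averaging probe sets that did not correlate; with 15 arrays r was -0.60 (adjusted p = 0.228). Other causes were not tested. The labels do not say that rat numbers pair the rats. Deviations of same-numbered rats had r from -0.11 to 0.24. Differently numbered rats were not set beside them, so these values cannot decide whether the numbers pair rats. With the replicate block 0 clock genes were called and Per1 had 0.65 without the pair (limma adjusted p = 0.499) and 0.72 with 15 arrays. Over all probe sets 3 were called with the block without the pair, against 189 with no block. Of other settings, 123 were called with a pseudocount of 1, 124 with quantile normalization, 46 with no filter, 334 with the higher filter, 309 with trend and robust and 14 with the Gapdh ratio; with 15 arrays 3, 49 and 8 were called with no filter, the higher filter and trend and robust. The few arrays and 1 time of day limit precision.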
